A study of Mus musculus with 12 samples.

Results

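The genes for the subunits of the proteasome, with its activators, inhibitor and assembly chaperones, were followed in RNA sequencing of the mouse ventral hippocampus. The set was taken by name from the deposited count table: protein-coding genes named Psma, Psmb, Psmc, Psmd, Psme, Psmf or Psmg with a number, without the immunoproteasome subunits Psmb8 and Psmb9. It held 46 of the 54532 genes of the table, and 44 of these were among the 16915 genes with enough counts to be tested. The mice, all labelled WT, fell into 4 groups with 3 libraries each. The CSDS group was exposed to CSDS, with no virus named. The SSDS-shACOT12 group was exposed to SSDS after knockdown of ACOT12, an acetyl-CoA thioesterase, in the liver. The SSDS-GFP group was exposed to SSDS after AAV8-eGFP. The Control group had neither a stress nor a virus named in its labels. The labels do not spell out CSDS and SSDS, which commonly abbreviate chronic social defeat stress and its subthreshold form. The names of the SSDS columns carry TBG, commonly the name of a liver-specific promoter, which the labels do not expand. No group had a virus without SSDS, so the virus and the stress cannot be told apart in any comparison of SSDS-GFP with Control. Age, sex and strain are not given, and nothing in the labels states that each library is a different animal. The p-values therefore measure the spread between these libraries, which may be technical.

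The proteasome is the protease that breaks down most ubiquitin-tagged protein in the cell. Its core particle is a barrel of outer alpha rings, which gate the entry, and inner beta rings, which hold the active sites. A regulatory particle caps the barrel: its base holds a ring of ATPases that unfold the substrate, and its lid removes the ubiquitin. Other caps can take its place, and dedicated chaperones build each piece. Transcription of the subunit genes is known to be raised together by the factor Nfe2l1 when proteasome activity runs short, and in neurons the turnover of synaptic proteins by the proteasome is part of plasticity.

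Library totals ran from 14656714 to 17694570 counts. Neuronal markers (Rbfox3, Snap25, Slc17a7 and 6 more) summed to between 7475 and 9826 CPM (counts scaled to a common library size after TMM) in every library. Such a sum goes with neuronal tissue and cannot check the brain region named in the label. T and NK cell markers summed to at most 1.30 CPM and B cell markers to at most 0.939 CPM. Red blood cell markers were higher in CSDS (332 to 386 CPM) than in Control (87.8 to 120.1 CPM). Choroid plexus markers (6 listed, 3 tested) summed to 17.7 to 24.6 CPM in CSDS, 12.1 to 30.5 CPM in SSDS-shACOT12 and 16.0 to 40.4 CPM in SSDS-GFP, against 552, 167 and 37.2 CPM in Control 1 to 3. Control 1 and Control 2 lay far above all other libraries, while Control 3 lay within the range of SSDS-GFP. Acot12 itself had 3 to 14 counts per library; the knockdown was in the liver, so this does not check it. Among the SSDS libraries, SSDS-shACOT12 3, SSDS-shACOT12 1 and SSDS-GFP 3 stood apart, with scores of 63.2, 37.4 and 35.7 on the leading principal component (log2 CPM, 31.3% of the variance). The other 9 libraries scored at most 5.82. The share of mitochondrial transcripts was 4.31% in SSDS-shACOT12 3 and 3.23% in SSDS-shACOT12 1, whereas it ran from 6.31% to 9.24% elsewhere. The medians of the comparisons that use SSDS libraries are given with and without these 3. The genes highest or lowest in them are given both ways for SSDS-shACOT12 against SSDS-GFP alone.

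Levels per length were compared with the deposited FPKM. The 14 genes of the standard core particle, Psma1 to Psma7 and Psmb1 to Psmb7, had a median level of 42.5 FPKM (mean over the 12 libraries of each gene). Their levels spanned a wide range. The lowest was Psma3, an alpha ring subunit, at 25.1 FPKM, and the highest was Psmb5, the beta subunit with chymotrypsin-like activity, at 157 FPKM. The 6 ATPase genes of the base had a median of 55.4 FPKM, from 24.8 FPKM for Psmc2 to 144 FPKM for Psmc5. The 8 lid genes had a median of 32.5 FPKM, from 7.79 FPKM for Psmd11 to 48.6 FPKM for Psmd7. Most accessory genes were lower on the same scale. The base assembly chaperones Psmd9, Psmd5 and Psmd10 lay at 4.54, 7.83 and 13.0 FPKM, and the inhibitor Psmf1 at 4.93 FPKM. The 4 core assembly chaperones, Psmg1 to Psmg4, had a median of 15.1 FPKM, from 2.47 FPKM for Psmg3 to 21.3 FPKM for Psmg4. The 4 activators ran from 5.44 FPKM for Psme4 to 34.6 FPKM for Psme3, so the ranges of accessory genes and lid genes overlapped. Together the 46 genes took 0.365% to 0.492% of all counts of a library. Psma8, the testis form of an alpha subunit, had 3 to 21 counts per library, and Psmb11, the thymus form of a beta subunit, had 2 to 10. Neither reached the count needed for a test. Psma8 lay at 0.251, 0.406 and 1.27 CPM in CSDS, 0.247, 0.255 and 0.248 CPM in SSDS-shACOT12, 0.505, 0.197 and 0.343 CPM in SSDS-GFP and 0.265, 0.454 and 0.416 CPM in Control. The highest value was in CSDS 3 and the groups overlapped. Psmb11 lay at 0.376, 0.406 and 0.302 CPM in CSDS, 0.247, 0.127 and 0.372 CPM in SSDS-shACOT12, 0.289, 0.459 and 0.286 CPM in SSDS-GFP and 0.199, 0.454 and 0.595 CPM in Control, again with overlapping groups.

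**Figure D1:**
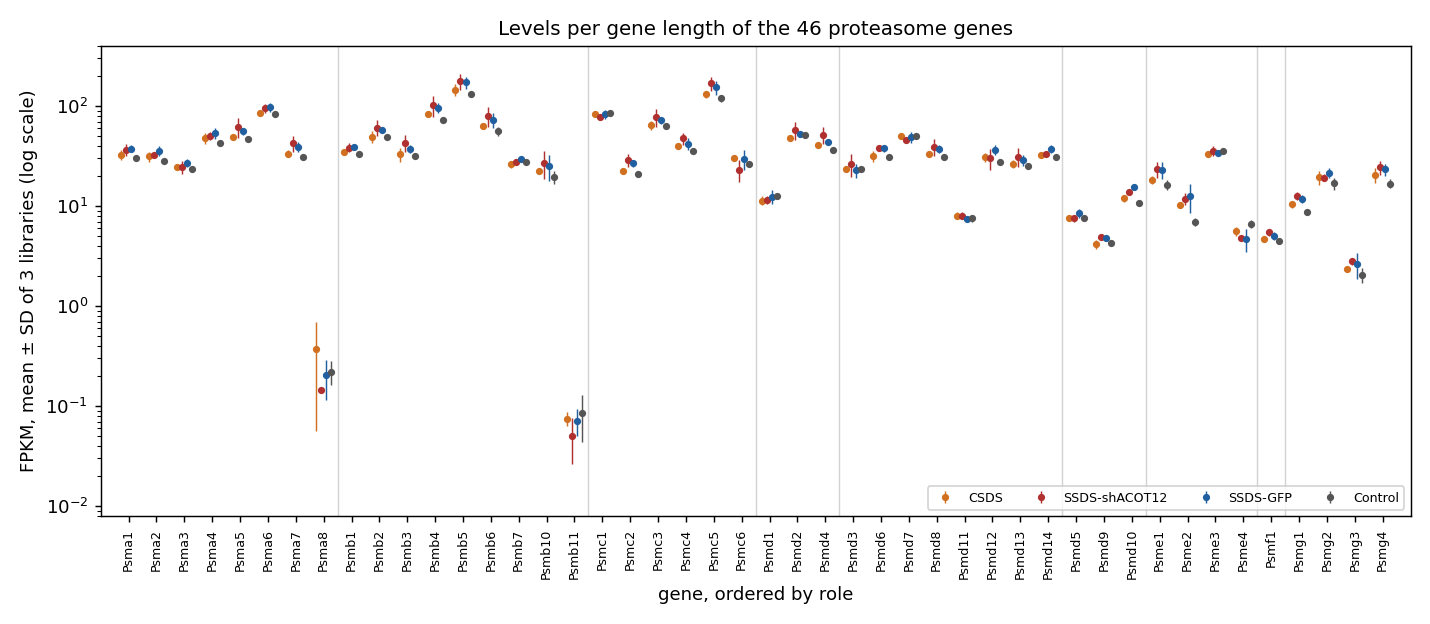
Mean deposited FPKM of each of the 46 genes (log axis, bars are SD over 3 libraries), with the 4 groups in separate colours and genes ordered within their role. Psmb5 at 156.9 FPKM and Psmc5 at 143.7 FPKM (means over 12 libraries) stand highest, and Psma8 and Psmb11 lie far below the rest.

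Over the 4 groups together, the proteasome genes tended to be lowest in Control and highest in the SSDS groups. Control had the lowest group mean of 32 of the 44 tested genes. SSDS-shACOT12 had the highest mean of 26 and SSDS-GFP of 13. These counts of group means were not taken over all tested genes, so their background share is not known. No proteasome gene passed the test for any difference among the groups (edgeR quasi-likelihood F test, Benjamini-Hochberg adjusted over all 16915 genes), where 15 genes, 0.0887% of all tested, passed. At an unadjusted p under 0.05 stood 13 of the 44 (29.5%), against 14.4% of all tested genes. The DESeq2 likelihood ratio test called 3 of them, Psmd10, Psme2 and Psmc2, against 5.29% of all genes it tested. Psme2 was the 1 gene called by edgeR with no filter on low counts (against 4.45% of all genes) and with the 3 libraries that stood apart left out (against 2.77%). The outcome leaned on SSDS-shACOT12 2: without that library the edgeR F test called 12 proteasome genes, against 13.5% of all genes. In all 6 SSDS libraries 18 of the 44 genes lay above all 3 Control libraries, against 7.29% of all tested genes; the comparisons below share these libraries and their counts are not independent of this one.

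The level was uneven across the SSDS libraries. Per library, the mean deviation of the 44 genes from their own means over the 12 libraries (log2 CPM) was -0.05, -0.00 and -0.13 in CSDS 1 to 3. It was 0.06, 0.00 and 0.27 in SSDS-shACOT12 1 to 3, 0.19, -0.01 and 0.10 in SSDS-GFP 1 to 3, and -0.14, -0.10 and -0.18 in Control 1 to 3. SSDS-shACOT12 3 and SSDS-GFP 1 thus lay highest, while SSDS-shACOT12 2 and SSDS-GFP 2 lay with the CSDS libraries. Each of the 2 highest libraries also lay apart in a glial marker sum. Astrocyte markers summed to 2851 CPM in SSDS-shACOT12 3, against at most 1964 CPM in any other library. Oligodendrocyte markers summed to 7037 CPM in SSDS-GFP 1, against at most 5397 CPM in any other library. The part of cell content in the proteasome level was not tested. SSDS-shACOT12 3 held the highest value of 25 of the 44 genes (56.8%, against 20.1% of all tested genes) and SSDS-GFP 1 of 11 (25%, against 6.35%). Of these 2, SSDS-shACOT12 3 is among the libraries that stood apart on the leading component and SSDS-GFP 1 is not. The 3 libraries that stood apart held the top 3 values of 5 genes (Psmb6, Psmd3, Psmd4, Psmd8 and Psmd13), 11.4%, against 6.8% of all tested genes, and the bottom 3 values of Psmc6 and Psmd7 (4.55%, against 10.8% of all tested genes). The spread of the proteasome genes within a group was below that of genes at large: the median SD of log2 CPM was 0.110 in CSDS, 0.203 in SSDS-shACOT12, 0.156 in SSDS-GFP and 0.0716 in Control, against 0.158, 0.308, 0.246 and 0.155 over all tested genes in the same order of groups. The genes were not matched for level, and the 44 had a median of 96.5 CPM. The part of level in the smaller spread was not tested.

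**Figure D2:**
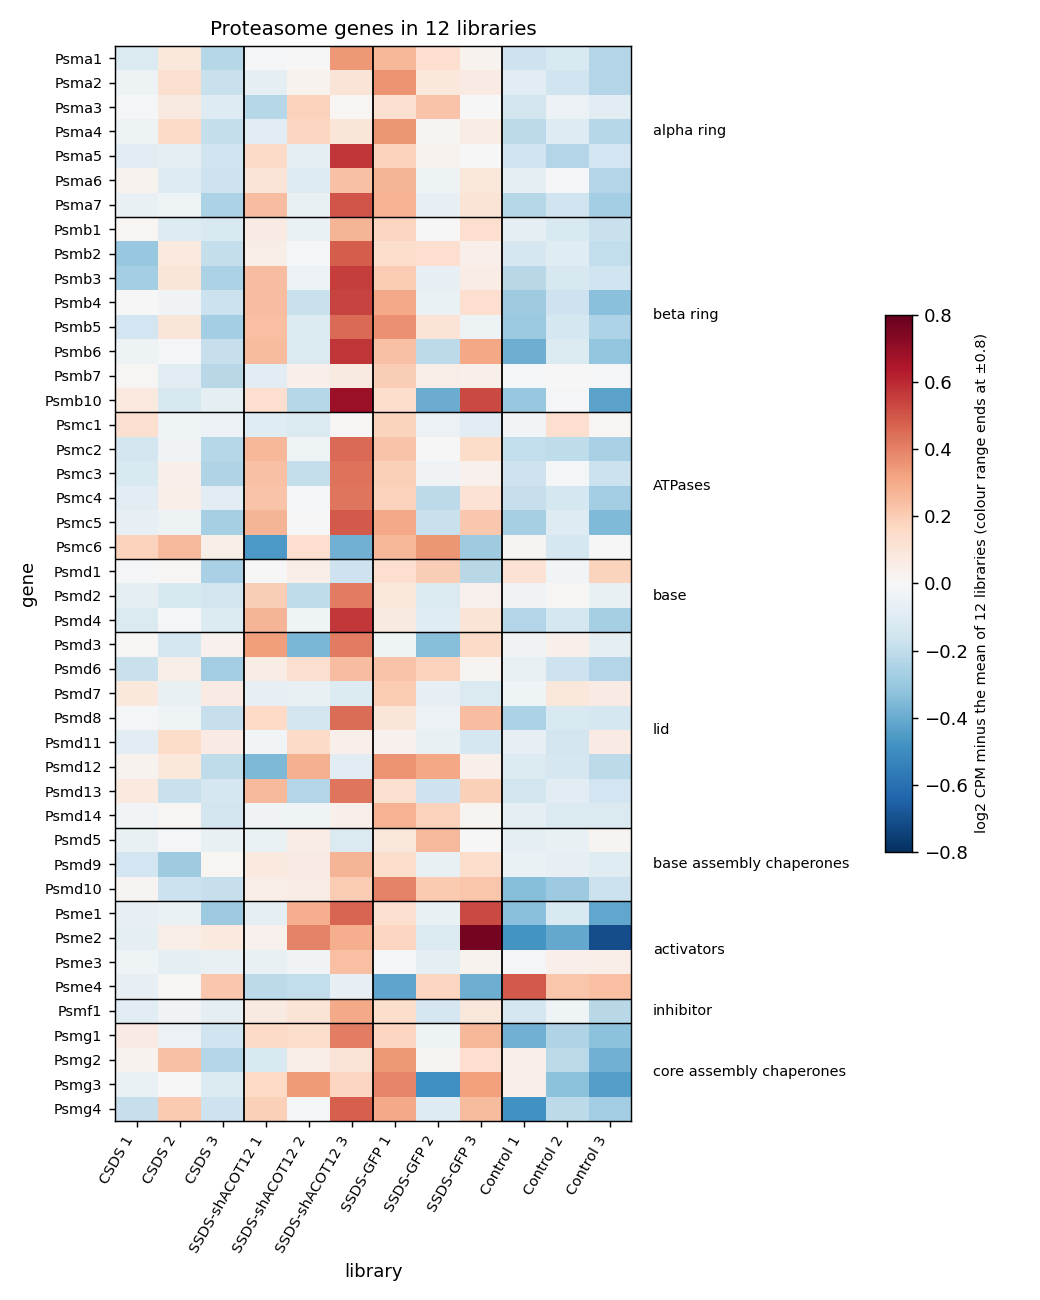
Deviation of each of the 44 tested proteasome genes from its mean over 12 libraries (log2 CPM, colour), with genes in rows by role and libraries in columns by group. Control columns are mostly below the mean (5, 7 and 7 of 44 genes above it), and SSDS-GFP 1 (41), SSDS-shACOT12 3 (38) and SSDS-GFP 3 (36) are mostly above it. Of all tested genes, 52.4%, 52.0% and 49.9% lay above their mean in Control 1 to 3. The shares were 53.0% in SSDS-GFP 1, 52.7% in SSDS-shACOT12 3 and 53.0% in SSDS-GFP 3.

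The comparison of SSDS-GFP with Control asks what SSDS together with the control virus goes with in this region. All standard core particle genes and all core assembly chaperones had log2 fold changes above 0, the activator genes Psme1 and Psme2 had values of 0.51 and 0.85, and the activator gene Psme4 had -0.51. No single gene passed the test over all genes: edgeR called 0 of the 44, against 0.0946% of all tested genes (13 higher and 3 lower). The smallest adjusted p was 0.116, for Psmd10. At an unadjusted p under 0.05, 18 of the 44 were higher, against 8.92% of all tested genes, and 1, Psme4, was lower, against 6.23%. The DESeq2 Wald test called 2, Psmd10 (adjusted p = 0.0120) and Psme2 (adjusted p = 0.0121), both higher, against 3.61% of all genes it tested, and edgeR with no filter called 1, Psme2, against 1.85%. The median log2 fold change of the 44 genes was 0.25, against 0.01 over all tested genes, and 37 of 44 were above 0 (50.8% of all tested genes were). In 23 genes every SSDS-GFP library lay above every Control library, against 12.5% of all tested genes, and in 1, Psme4, every one lay below, against 11.4%. Choroid plexus markers were highest in Control 1; without that library the median was 0.25 with 37 of 44 above 0, and the part of these markers in single genes was not tested. In bulk tissue, fewer cells of a type and less RNA per cell cannot be told apart.

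**Figure D3:**
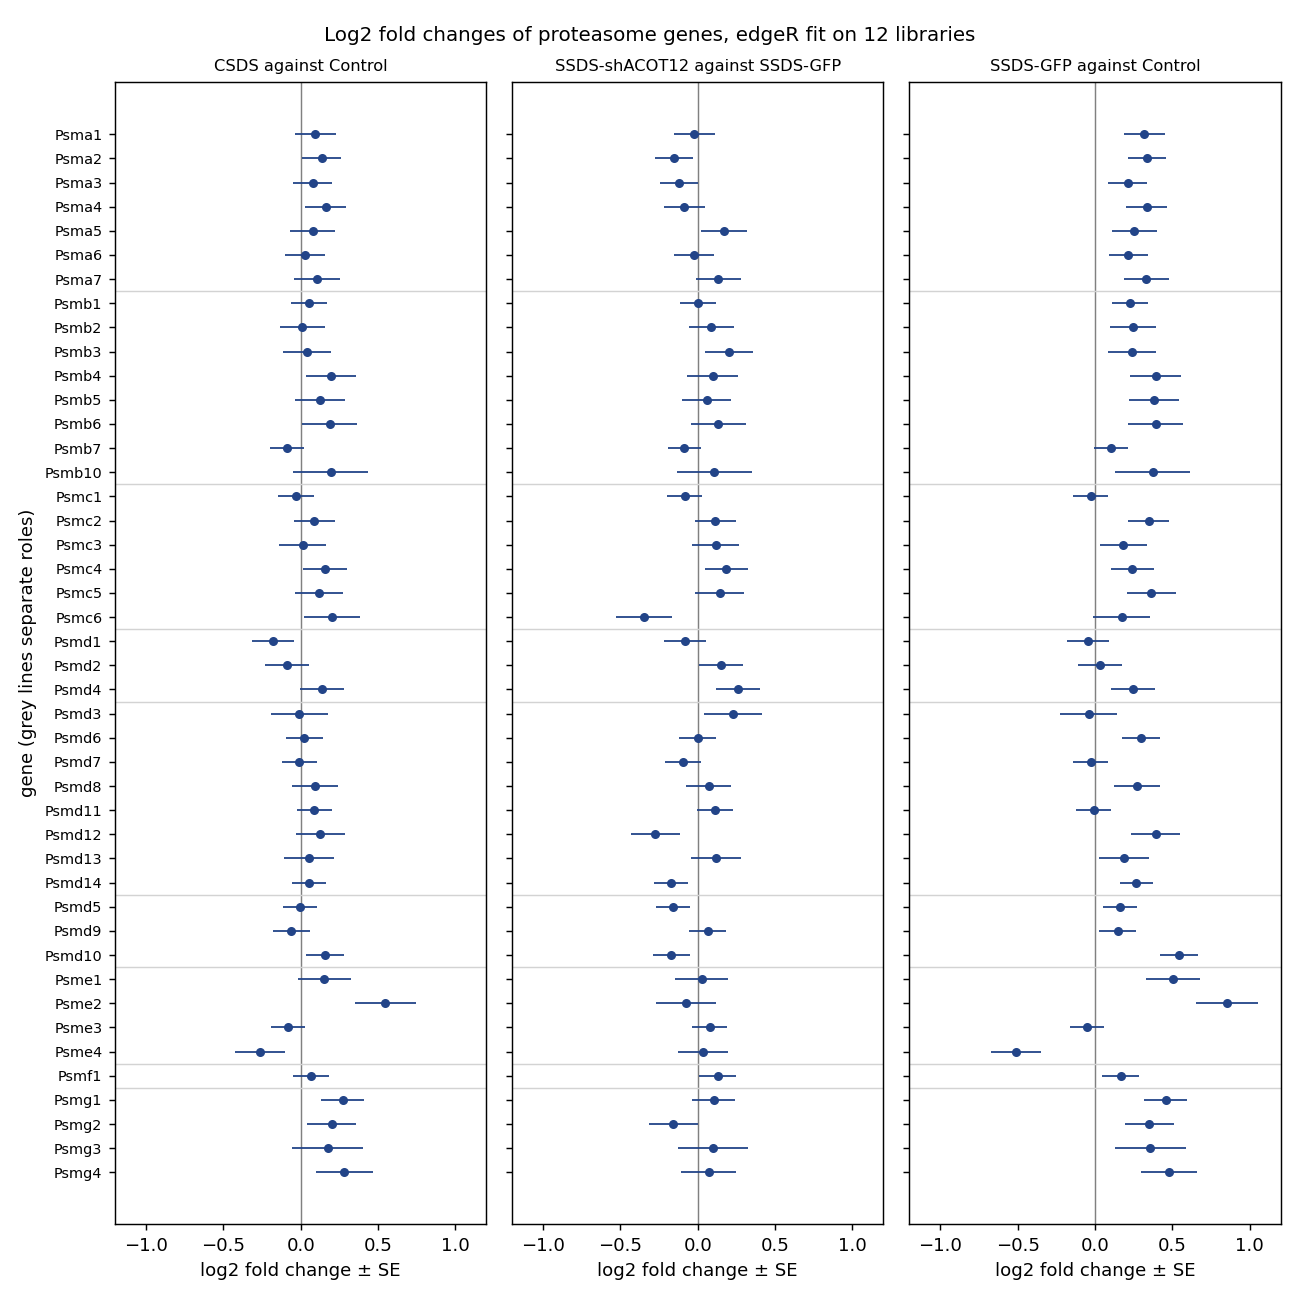
Log2 fold change of each of the 44 tested genes (points, bars are SE from the edgeR fit) in the 3 comparisons, genes ordered by role. In SSDS-GFP against Control 37 points lie above 0, from -0.51 for Psme4 to 0.85 for Psme2, while the points of SSDS-shACOT12 against SSDS-GFP lie between -0.35 and 0.26.

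All 14 genes of the standard core particle were higher in SSDS-GFP, with a median log2 fold change of 0.29 and a range from 0.10 (Psmb7) to 0.39 (Psmb6). In 12 of the 14 the groups did not overlap (85.7%, against 12.5% of all tested genes). Psmb5 lay at 181, 152 and 137 CPM in SSDS-GFP, against 115, 128 and 118 CPM in Control, with the log2 fold change at 0.38 ± 0.16 (SE) and adjusted p = 0.283 (edgeR). Every SSDS-GFP library was above every Control library, SSDS-GFP 1 the most, and the log2 fold change was 0.25 without that library. Psmb6, the beta subunit with caspase-like activity, lay at 149.6, 109.7 and 157 CPM in SSDS-GFP, against 97.0, 118 and 102 CPM in Control. SSDS-GFP 2 fell inside the Control range, and the log2 fold change was 0.39 ± 0.18 (SE) (adjusted p = 0.315, edgeR). Psmb7, the beta subunit with trypsin-like activity, lay at 110.3, 99.7 and 98.8 CPM in SSDS-GFP, against 95.8, 96.4 and 95.0 CPM in Control. The Control libraries lay within a narrow band just below SSDS-GFP, and the log2 fold change was 0.10 ± 0.11 (SE) (adjusted p = 0.688, edgeR), the smallest of the core particle; it was 0.038 without SSDS-GFP 1. Psma7, an alpha ring subunit, lay at 136, 107 and 121 CPM in SSDS-GFP, against 95.4, 99.9 and 92.7 CPM in Control, without overlap (0.33 ± 0.15 (SE), adjusted p = 0.305, edgeR). The other 6 standard alpha genes had log2 fold changes from 0.21 (Psma3) to 0.34 (Psma2), and Psma6 alone among them overlapped between the groups.

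Psmb10, a catalytic subunit that takes the place of Psmb7 in the immunoproteasome and is known to be induced by interferon, varied more between libraries. It lay at 43.6, 30.1 and 57.1 CPM in SSDS-GFP, against 32.2, 39.4 and 29.5 CPM in Control. SSDS-GFP 3 was the highest and SSDS-GFP 2 among the lowest of the 6, so the groups overlapped. The log2 fold change was 0.37 ± 0.24 (SE) (adjusted p = 0.483, edgeR), 0.13 without SSDS-GFP 3 and 0.58 without SSDS-GFP 2.

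Within the regulatory particle the genes were less alike. Of the 6 ATPase genes 5 were above 0, with a median of 0.21. Psmc2, a base ATPase and the ATPase gene with the smallest adjusted p in the F test (0.240, edgeR), lay at 146, 125 and 138 CPM in SSDS-GFP, against 109, 108 and 104 CPM in Control, without overlap (0.35 ± 0.13 (SE)). Psmc1 was close to 0 (-0.03 ± 0.11 (SE)). The large base scaffolds showed no such difference, with log2 fold changes of -0.04 ± 0.14 (SE) for Psmd1 and 0.03 ± 0.14 (SE) for Psmd2. Psmd4, the ubiquitin receptor of the base, lay at 128, 114 and 131 CPM in SSDS-GFP, against 103, 110.0 and 101 CPM in Control, without overlap (0.25 ± 0.14 (SE), adjusted p = 0.430, edgeR). The 8 lid genes divided. Psmd12, Psmd6, Psmd14 and Psmd8 were higher by 0.27 to 0.39 on the log2 scale. These 4 did not overlap between the groups (50%, against 12.5% of all tested genes). Psmd13 was at 0.19 with overlap, and Psmd3, Psmd7 and Psmd11 lay between -0.04 and -0.01. Psmd14 is the deubiquitinase of the lid. It lay at 116, 108 and 97.2 CPM in SSDS-GFP, against 90.4, 88.3 and 88.3 CPM in Control (0.27 ± 0.11 (SE), adjusted p = 0.266, edgeR).

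Psmd10, a chaperone of base assembly also known as gankyrin, had the smallest p of the 44 genes. It lay at 25.2, 22.1 and 22.3 CPM in SSDS-GFP, against 15.1, 15.6 and 17.0 CPM in Control. All 3 SSDS-GFP libraries were well above the highest Control library, and the fold was 1.46 (log2 0.54 ± 0.12 (SE), adjusted p = 0.116, edgeR). The other base chaperones, Psmd5 and Psmd9, overlapped between the groups (0.16 and 0.15 on the log2 scale). All 4 core assembly chaperones were higher, with a median log2 fold change of 0.41, the highest of any role before gene length was accounted for. The medians of the length classes they fall in (described below) had a median of 0.20. With the length trend removed, the 4 genes lay from 0.16 (Psmg2) to 0.29 (Psmg3), and the roles were not ranked again. Psmg1, which with Psmg2 starts the alpha ring, lay at 16.5, 14.2 and 17.6 CPM in SSDS-GFP, against 11.2, 12.4 and 11.7 CPM in Control (0.46 ± 0.14 (SE), adjusted p = 0.163, edgeR), without overlap. Psmg4, the partner of Psmg3, lay at 14.5, 11.0 and 14.0 CPM in SSDS-GFP, against 8.42, 10.2 and 9.70 CPM in Control (0.48 ± 0.18 (SE), adjusted p = 0.243, edgeR). The Psmg4 groups did not overlap either, and this gene rests on few counts, as do Psmg1 and Psmd10.

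The activators lay on opposite sides of 0. Psme2, the beta subunit of the interferon-induced cap that opens the core particle, lay at 20.2, 16.5 and 30.5 CPM in SSDS-GFP, against 12.9, 13.5 and 10.9 CPM in Control. All SSDS-GFP libraries were above all Control libraries, with SSDS-GFP 3 far above the others, and the fold was 1.81 (log2 0.85 ± 0.20 (SE), adjusted p = 0.118, edgeR). Without SSDS-GFP 3 the log2 fold change was 0.56, and without SSDS-GFP 2 it was 1.03. Its partner Psme1 lay at 48.7, 42.8 and 64.1 CPM in SSDS-GFP, against 35.3, 40.9 and 33.3 CPM in Control (0.51 ± 0.17 (SE), adjusted p = 0.196, edgeR). The groups did not overlap, SSDS-GFP 3 was again the highest, and the log2 fold change was 0.32 without it. Psme3, which forms a related nuclear cap, did not differ in this way (-0.05). Psme4, a large nuclear activator that binds the ends of the barrel, lay at 33.8, 51.1 and 34.5 CPM in SSDS-GFP, against 63.6, 52.8 and 53.5 CPM in Control. All SSDS-GFP libraries were below all Control libraries, SSDS-GFP 2 only just (-0.51 ± 0.16 (SE), adjusted p = 0.175, edgeR). Without SSDS-GFP 2 the log2 fold change of Psme4 was -0.73. The inhibitor Psmf1 overlapped between the groups (0.17).

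**Figure D4:**
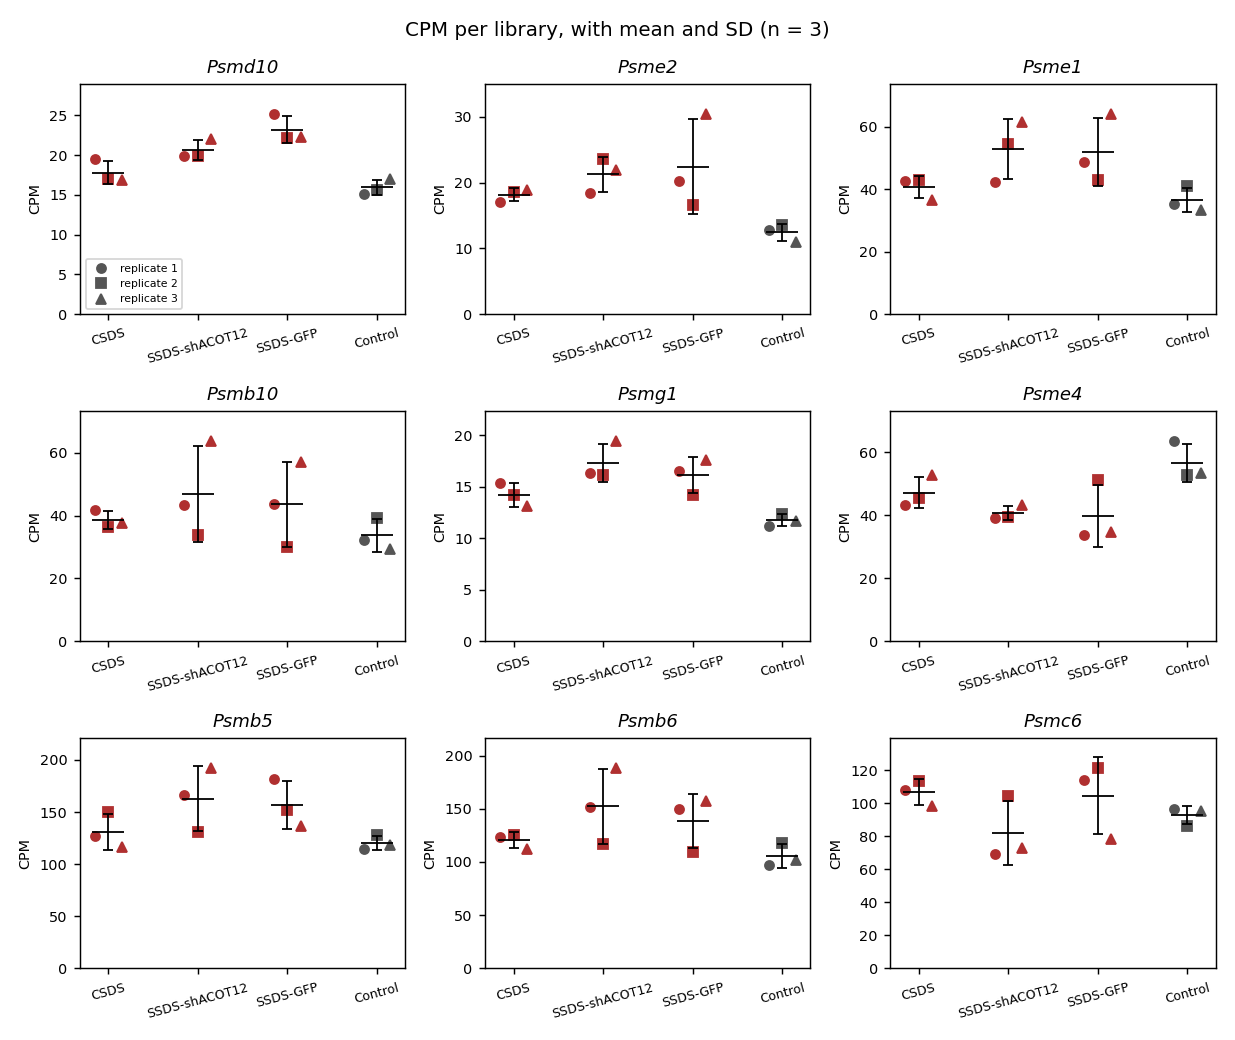
CPM of 9 proteasome genes in every library (points) with the group mean and SD (lines), groups from left to right CSDS, SSDS-shACOT12, SSDS-GFP and Control. The group means of Psmd10, Psme2, Psme1 and Psmg1 are lowest in Control, that of Psme4 is highest there, and Psmb10 and Psmb6 overlap between SSDS-GFP and Control.

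Because Psme1, Psme2 and Psmb10 are known to be induced by interferon, a list of 22 interferon and antigen processing genes (Ifit1, B2m, Tap1 and others, all tested) was read beside them. Its summed level was 283 to 349.9 CPM in CSDS, 262 to 416 CPM in SSDS-shACOT12, 280.0 to 561 CPM in SSDS-GFP and 289.7 to 427 CPM in Control. SSDS-GFP 3, the library with the highest Psme2 and Psme1, held the highest sum, 561 CPM, while the other 2 SSDS-GFP libraries lay at 280.0 and 285 CPM, below every Control library. In SSDS-GFP against Control 18 of the 22 genes were above 0 and 4 below, with a median log2 fold change of 0.19 and none called by edgeR. In CSDS against Control 7 were above 0 and 15 below (median -0.15), with none called. In SSDS-shACOT12 against SSDS-GFP 3 were above 0 and 19 below (median -0.76), again with none called. Microglial markers, 12 of 12 tested, summed to 401 to 464 CPM in CSDS, 355 to 471 CPM in SSDS-shACOT12, 357 to 454 CPM in SSDS-GFP and 381 to 438 CPM in Control. The part of either list in the Psme2 and Psme1 values was not tested.

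Gene length moved with this comparison. Across all tested genes the median log2 fold change of SSDS-GFP against Control was 0.20 in the shortest of 8 length classes (up to 1478 bases) and -0.14 in the longest. Proteasome genes are short, and the medians of the classes they fall in had a median of 0.08, against the 0.25 of the genes themselves. With each library's trend with gene length removed, their median was 0.20 and 39 of 44 were above 0. Separation between the groups was not counted again after this removal. Psmb5 was then at 0.18, Psmb6 at 0.25, Psmb10 at 0.22, Psmg1 at 0.28 and Psmg4 at 0.25. Psmd10 was at 0.37, Psme2 at 0.70, Psme1 at 0.40 and Psme4 at -0.40. The core particle genes all stayed above 0, but Psma5 (0.08), Psma6 (0.03), Psmb2 (0.07) and Psmb7 (0.07) came close to it. Psme4, at 8382 bases, lies in a class with a median of -0.08. Leaving out SSDS-GFP 3 with SSDS-shACOT12 1 and SSDS-shACOT12 3, chosen after seeing the data, the median was 0.26 with 41 of 44 above 0.

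**Figure D5:**
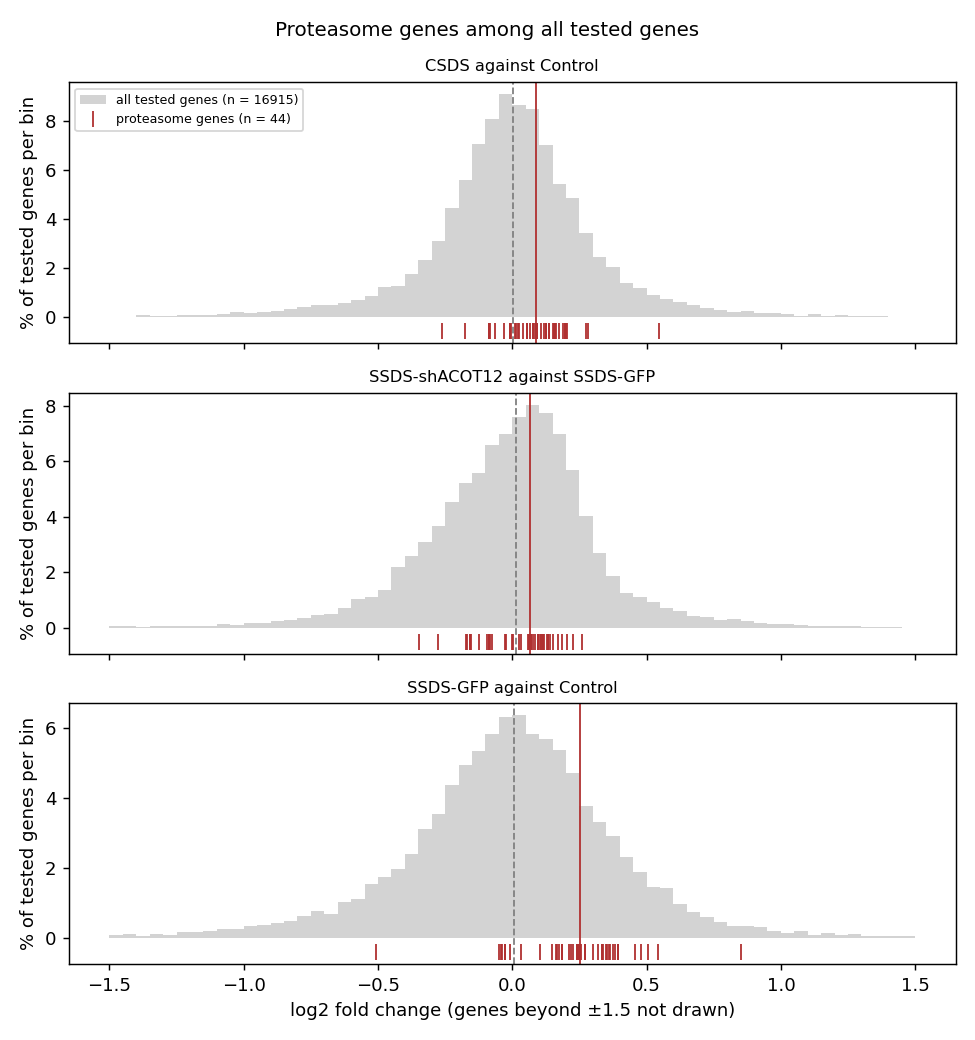
Share of genes by log2 fold change in the 3 comparisons, for the 44 proteasome genes and for all 16915 tested genes, with the medians marked. The proteasome median is 0.09 in CSDS against Control, 0.07 in SSDS-shACOT12 against SSDS-GFP and 0.25 in SSDS-GFP against Control, against 0.00, 0.01 and 0.01 for all tested genes.

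The comparison of CSDS with Control asks what CSDS without a named virus goes with. Red blood cell markers were higher in CSDS (332 to 386 CPM, against 87.8 to 120.1 CPM in Control). Choroid plexus markers were lower (17.7 to 24.6 CPM, against 37.2 to 552 CPM in Control). The part of these markers in the proteasome values was not tested. Log2 fold changes lay closer to 0 than those of SSDS-GFP, Psme2 standing highest at 0.55 and Psme4 lowest at -0.26. The Control libraries are the same as above, so the 2 comparisons are not independent, and their difference was not tested. edgeR called none of the 44 genes, against 0% of all tested genes (0 of 16915, of which 993 had an unadjusted p under 0.05); the smallest adjusted p was 0.849. DESeq2 called 6 genes, no proteasome gene among them. At an unadjusted p under 0.05 stood 1 proteasome gene, Psme2, higher, against 2.86% of all tested genes, and none lower, against 3.01%. The median log2 fold change of the 44 was 0.09, against 0.00 over all tested genes, and 34 were above 0, against 50.3% of all tested genes. In 6 genes every CSDS library lay above every Control library (13.6%, against 10.2% of all tested genes), and in 3 below (against 10.1%). The 6 were Psme2, Psmg1, Psmg4, Psmc4, Psmc6 and Psmd4, and the 3 were Psme4, Psme3 and Psmd2.

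Psme2 lay at 17.0, 18.6 and 18.9 CPM in CSDS, against 12.9, 13.5 and 10.9 CPM in Control. The CSDS libraries lay close together and above all Control libraries, with a fold of 1.46 (log2 0.55 ± 0.20 (SE), adjusted p = 0.849, edgeR). Its partner Psme1 overlapped, at 42.5, 42.8 and 36.5 CPM in CSDS, against 35.3, 40.9 and 33.3 CPM in Control (0.15 ± 0.17 (SE)). Psme4 lay at 43.3, 45.6 and 52.7 CPM in CSDS, against 63.6, 52.8 and 53.5 CPM in Control, the groups separated by a margin far smaller than their own spread (-0.26 ± 0.16 (SE), adjusted p = 0.893, edgeR) and -0.17 without Control 1. Psmg1 lay at 15.3, 14.2 and 13.1 CPM in CSDS, against 11.2, 12.4 and 11.7 CPM in Control (0.27 ± 0.14 (SE), adjusted p = 0.867, edgeR). Psmg4 lay at 10.3, 13.6 and 10.5 CPM in CSDS, against 8.42, 10.2 and 9.70 CPM in Control (0.28 ± 0.18 (SE), adjusted p = 0.900, edgeR). For both chaperones the lowest CSDS library stood only slightly above the highest Control library, and Psmg4 was at 0.15 without CSDS 2. Psmg2 and Psmg3 overlapped between the groups. Psmd1, the base scaffold, lay at 86.8, 88.4 and 73.5 CPM in CSDS, against 95.1, 86.7 and 99.5 CPM in Control, with overlap (-0.18 ± 0.14 (SE), adjusted p = 0.918, edgeR). Without CSDS 3 it was -0.098. Gene length moved with this comparison as well: the median over all tested genes was 0.14 in the shortest length class and -0.09 in the longest, and the class medians of the proteasome genes had a median of 0.05. With the length trend removed, the median of the 44 was 0.06 with 30 above 0, Psmg1 was at 0.16, Psmg4 at 0.15 and Psmd1 at -0.11.

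The core particle was nearly level in this comparison. Its 14 genes had a median log2 fold change of 0.09, with 13 above 0. None was separated between the groups, against 10.2% of all tested genes upwards and 10.1% downwards. Psmb5 lay at 127, 150.1 and 116 CPM in CSDS, against 115, 128 and 118 CPM in Control (0.13 ± 0.16 (SE)). Psmb6 lay at 123, 126 and 112 CPM in CSDS, against 97.0, 118 and 102 CPM in Control (0.19 ± 0.18 (SE)). Both overlapped, CSDS 2 being the highest for each. Psmb7 lay at 96.9, 90.9 and 82.6 CPM in CSDS, against 95.8, 96.4 and 95.0 CPM in Control (-0.09 ± 0.11 (SE)), Psma7 at 107, 109 and 93.9 CPM against 95.4, 99.9 and 92.7 CPM (0.11 ± 0.15 (SE)), and Psmb10 at 41.8, 36.2 and 37.6 CPM against 32.2, 39.4 and 29.5 CPM (0.19 ± 0.24 (SE)), all with overlap. Psmd10, the gene with the smallest p in SSDS-GFP against Control, lay at 19.5, 17.0 and 16.8 CPM in CSDS, against 15.1, 15.6 and 17.0 CPM in Control. CSDS 2 was level with the highest Control library and CSDS 3 lay below it (0.16 ± 0.12 (SE), adjusted p = 0.919, edgeR).

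SSDS-shACOT12 was set against SSDS-GFP to ask what knockdown of ACOT12 in the liver adds under SSDS. The proteasome genes showed no shared direction here, and the values of the 2 groups overlapped for all but 1 gene. None of the 44 had every SSDS-shACOT12 library above every SSDS-GFP library, against 2.23% of all tested genes. edgeR called none of the 44, against 0% of all tested genes (0 of 16915, with 766 at an unadjusted p under 0.05). DESeq2 called none of the 44 either, and its count over all genes is not given here for this comparison. No proteasome gene had an unadjusted p under 0.05, against 4.53% of all tested genes, and the smallest adjusted p was 0.802. The median log2 fold change was 0.07, against 0.01 over all tested genes, with 27 of 44 above 0 (52% of all tested genes). It rested on SSDS-shACOT12 3: without that library the median was -0.069 with 11 of 44 above 0. Without SSDS-GFP 3, SSDS-shACOT12 1 and SSDS-shACOT12 3 it was -0.13 with 9 of 44 above 0, on a single SSDS-shACOT12 library taken to vary like the other groups.

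Psmd10 was the gene without overlap, at 19.9, 19.9 and 22.1 CPM in SSDS-shACOT12, against 25.2, 22.1 and 22.3 CPM in SSDS-GFP. The highest SSDS-shACOT12 library and the lowest SSDS-GFP library were almost equal (-0.17 ± 0.12 (SE), adjusted p = 0.802, edgeR), and 1 gene of 44 separated downwards compares with 2.58% of all tested genes. Psmc6, a base ATPase, had the smallest p. It lay at 69.2, 104 and 73.0 CPM in SSDS-shACOT12, against 114, 121 and 78.3 CPM in SSDS-GFP. SSDS-shACOT12 2 and SSDS-GFP 3 fell inside the other group (-0.35 ± 0.18 (SE), adjusted p = 0.802, edgeR). Psmc6 was lowest in the 3 libraries that stood apart, and without SSDS-shACOT12 2 its log2 fold change was -0.56 (adjusted p = 0.0636, edgeR; 0.0636 to 1.00 over all the alternatives). With the 3 libraries left out the log2 fold change was -0.17, and it was -0.23 without SSDS-GFP 2. In CSDS it lay at 108, 114 and 98.5 CPM, against 96.7, 86.5 and 95.2 CPM in Control.

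Psmd4 lay at 147, 119 and 180.2 CPM in SSDS-shACOT12, against 128, 114 and 131 CPM in SSDS-GFP (0.26 ± 0.14 (SE), adjusted p = 0.802, edgeR). It was highest in the same 3 libraries, and with them left out the log2 fold change was -0.024. It was 0.40 without SSDS-shACOT12 2 and 0.10 without SSDS-shACOT12 3 (adjusted p of 0.0639 to 1.00 over all the alternatives, edgeR, DESeq2 or limma). For the other 4 genes highest in those libraries the log2 fold changes with and without them were 0.13 and -0.14 (Psmb6), 0.23 and -0.19 (Psmd3), 0.07 and -0.17 (Psmd8), and 0.12 and -0.22 (Psmd13). Psmd7, lowest in them, was at -0.14 without them and at -0.09 with them. Psmd12, a lid scaffold, lay at 64.8, 101 and 77.9 CPM in SSDS-shACOT12, against 107, 103 and 85.6 CPM in SSDS-GFP (-0.28 ± 0.16 (SE), adjusted p = 0.802, edgeR). SSDS-shACOT12 2 lay among the SSDS-GFP values. Leaving out SSDS-shACOT12 2 gave Psmd12 a log2 fold change of -0.46, leaving out SSDS-shACOT12 1 gave -0.14, and leaving out the 3 libraries that stood apart gave -0.052 (adjusted p of 0.0632 to 1.00 over all the alternatives). Psmd14 lay at 93.7, 93.4 and 98.2 CPM in SSDS-shACOT12, against 116, 108 and 97.2 CPM in SSDS-GFP (-0.17 ± 0.11 (SE), adjusted p = 0.802, edgeR). Psmd5 lay at 54.9, 59.6 and 52.7 CPM in SSDS-shACOT12, against 60.9, 68.5 and 57.2 CPM in SSDS-GFP (-0.16 ± 0.11 (SE), adjusted p = 0.802, edgeR). In both genes the highest SSDS-shACOT12 library exceeded only the lowest SSDS-GFP library. Psmd14 was at -0.11 without SSDS-GFP 1 and -0.27 without the 3 libraries, and Psmd5 at -0.083 without SSDS-GFP 2. Between libraries of the same number, Psmc6, Psmd5, Psmd10 and Psmd12 were lower in SSDS-shACOT12 in all 3 pairs, 4 of 44 genes (9.09%, against 17.6% of all tested genes). Psmb3, Psmb6, Psmc4 and Psmd4 were higher in all 3 pairs, again 4 of 44 (against 15% of all tested genes).

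The catalytic and activator genes overlapped widely between the SSDS groups. Psmb5 lay at 166, 131 and 192 CPM in SSDS-shACOT12, against 181, 152 and 137 CPM in SSDS-GFP (0.06 ± 0.16 (SE)). Psmb6 lay at 151, 117 and 188 CPM in SSDS-shACOT12, against 149.6, 109.7 and 157 CPM in SSDS-GFP (0.13 ± 0.18 (SE)). In each, SSDS-shACOT12 3 was the highest of the 12 libraries. Psmb7 lay at 90.4, 99.1 and 101 CPM, against 110.3, 99.7 and 98.8 CPM in SSDS-GFP (-0.09 ± 0.11 (SE)), and Psmb10 at 43.4, 33.9 and 63.8 CPM, against 43.6, 30.1 and 57.1 CPM in SSDS-GFP (0.11 ± 0.24 (SE)). Psma7 lay at 132, 107 and 158 CPM in SSDS-shACOT12, against 136, 107 and 121 CPM in SSDS-GFP (0.13 ± 0.15 (SE)). Psmc2 was likewise highest in SSDS-shACOT12 3, at 149.6, 122 and 171 CPM in SSDS-shACOT12, against 146, 125 and 138 CPM in SSDS-GFP (0.11 ± 0.13 (SE)). The activators were close to level. Psme2 lay at 18.4, 23.6 and 21.9 CPM in SSDS-shACOT12, against 20.2, 16.5 and 30.5 CPM in SSDS-GFP (-0.08 ± 0.20 (SE)). Psme1 lay at 42.4, 54.5 and 61.4 CPM, against 48.7, 42.8 and 64.1 CPM in SSDS-GFP (0.02 ± 0.17 (SE)), and Psme4 at 39.2, 39.6 and 43.2 CPM, against 33.8, 51.1 and 34.5 CPM in SSDS-GFP (0.03 ± 0.16 (SE)). For Psme4 the SSDS-shACOT12 libraries lay between the SSDS-GFP values and all below the Control libraries. Psmg1 lay at 16.3, 16.2 and 19.5 CPM in SSDS-shACOT12, against 16.5, 14.2 and 17.6 CPM in SSDS-GFP (0.10 ± 0.14 (SE)).

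A list of 32 genes that work with the proteasome was read beside the subunits; all were tested. It held ubiquitin genes, ubiquitin-activating enzymes, shuttle factors, proteasome-bound deubiquitinases and the transcription factors of the subunit genes. edgeR called none of the 32 in any of the 3 comparisons. The medians were 0.00 in CSDS against Control, 0.01 in SSDS-shACOT12 against SSDS-GFP and 0.10 in SSDS-GFP against Control, where 22 were above 0 and 10 below. Pomp, the chaperone that matures the core particle, lay at 127, 141 and 116 CPM in CSDS, 135, 126 and 187 CPM in SSDS-shACOT12, 171, 124 and 148 CPM in SSDS-GFP and 105, 109 and 101 CPM in Control. Its CSDS and SSDS-GFP libraries were all above the Control libraries, with log2 fold changes of 0.29 ± 0.16 (SE) (adjusted p = 0.876) in CSDS and 0.49 ± 0.16 (SE) (adjusted p = 0.182, edgeR) in SSDS-GFP. Nfe2l1, the transcription factor that raises subunit genes when the proteasome is short, lay at 277, 280.5 and 271 CPM in CSDS, 343, 308 and 363 CPM in SSDS-shACOT12, 303, 290.4 and 301 CPM in SSDS-GFP and 251, 281 and 273 CPM in Control. It was highest in SSDS-shACOT12, whose libraries all lay above those of SSDS-GFP (0.18 ± 0.11 (SE), adjusted p = 0.802, edgeR), and SSDS-GFP lay above Control in every library (0.15 ± 0.11 (SE), adjusted p = 0.522, edgeR). Usp14, a deubiquitinase that binds the base, lay at 116, 130.2 and 105 CPM in CSDS, 92.5, 144 and 115 CPM in SSDS-shACOT12, 129, 151 and 115 CPM in SSDS-GFP and 119.9, 115 and 113 CPM in Control, and its groups overlapped in each comparison. Adrm1, another ubiquitin receptor of the base, lay at 58.9, 64.4 and 63.3 CPM in CSDS, 80.8, 58.4 and 87.0 CPM in SSDS-shACOT12, 75.7, 53.4 and 68.1 CPM in SSDS-GFP and 63.5, 61.3 and 58.3 CPM in Control, again with overlap in each.

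The subunit promoters were searched for binding motifs of known regulators of these genes, in the window that RefSeq sequence gave around each start (250 bases before to 50 after, GRCm38.p6). Of the 46 genes 38 had an entry, with 41 promoters. The core of the antioxidant response element (TGACNNNGC, either strand), which Nfe2l1 and related factors bind, was found in 6 of the 41 (14.6%), against 12.4% of 32851 promoters of all genes. These were the promoters of Psmb5, Psmb6, Psmc6, Psmd9, Psmd12 and Psme4. The core of the interferon-stimulated response element (either strand) was found in 5 of the 41 (12.2%), against 3.44% of all promoters. These belonged to Psmb3, Psmd4, Psmd9, Psme1 and Psmg4. The CCAAT box (CCAAT, either strand) was found in 13 of the 41 (31.7%), against 37.4%. A motif match is a string of letters and shows no binding. The stretches of Psmb5, Psmb6 and Psme4 are shown for the antioxidant core, since they come from catalytic subunits and from the activator that was lower, and that of Psme1 for the interferon core; the match is in capitals, on the strand of the gene.
Psmb5, chr14:54617996-54618095, minus strand: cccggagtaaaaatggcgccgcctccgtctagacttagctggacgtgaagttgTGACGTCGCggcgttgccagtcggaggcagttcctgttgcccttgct
Psmb6, chr11:70525257-70525356, plus strand: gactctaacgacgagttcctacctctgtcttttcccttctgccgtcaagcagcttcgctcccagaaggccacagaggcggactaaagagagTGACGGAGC
Psme4, chr11:30771675-30771776, plus strand: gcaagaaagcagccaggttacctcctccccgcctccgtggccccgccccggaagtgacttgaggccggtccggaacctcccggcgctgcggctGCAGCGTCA
Psme1, chr14:55578493-55578522, plus strand: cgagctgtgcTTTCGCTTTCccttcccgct

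In Psme4 and Psme1 the match reads on the opposite strand of the gene. The antioxidant core began 47 bases before the start of Psmb5, 9 bases before that of Psmb6 and 7 bases before that of Psme4. In SSDS-GFP against Control 5 of the 6 genes that carry it were above 0, as were 37 of all 44 tested proteasome genes: Psmb5 (0.38), Psmb6 (0.39), Psmd12 (0.39), Psmc6 (0.17) and Psmd9 (0.15) were above 0 on the log2 scale and Psme4 (-0.51) below.

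Psme1 and Psme2 lie near each other on chromosome 14 (55578123 to 55581529 on the plus strand and 55587441 to 55591113 on the minus strand, mm10), 5911 bases apart. Psmb5 and Psmb11 lie 3410 bases apart on the same chromosome. Reads can be shared with copies elsewhere. Of the 75-base stretches of the transcripts of Psmb5, 36.8% also occur in another gene's transcripts, as do 35.2% of those of Psma5, 22.9% of those of Psme2 (shared with Psme2b), 14.3% of those of Psma3 and 10.3% of those of Psmb3. How the counting treated such reads is not given in the sources used here, so the values of these 5 genes are uncertain. The copies themselves held 153 to 320 counts per library for Psme2b, where Psme2 held 184 to 533, and 479 to 721 for the copy of Psma3. Those of Psma5, Psmb5 and Psmb3 held 64 to 132, 61 to 107 and 0 to 2. Exons of 11 of the 46 genes, Psme1 among them, overlap exons of another gene, and a library kit that does not mark strand cannot tell the pair apart on opposite strands.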

How the data were processed

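RNA was sequenced from 12 libraries in 4 groups of 3. Per the submitters' processing notes, alignment to mm10 used HISAT2 2.0.5, counting used featureCounts 1.5.0-p3, and DESeq2 is named without a version. The labels' protocols name the NEBNext Ultra RNA kit and 1 µg of RNA; strand setting, read length and annotation release are not given in the sources used here. The counts deposited by the authors are whole numbers, not normalized. Their deposited FPKM values are scaled to gene length and to a library size 0.958 to 1.06 times the count total. Gene length (a unit other than expression) is in bases per the file headers, and for 44 of the 46 genes it equals the exon union of GENCODE M21.

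Counts were tested with edgeR 4.0.16 in R 4.3.3: filterByExpr (minimum count 10, minimum total 15), TMM, a quasi-likelihood fit with group as the factor over all 12 libraries, and 2-sided tests adjusted by Benjamini-Hochberg over 16915 genes, called at 0.05. CPM are of the TMM-scaled library. Log2 fold changes and their SE are from this fit; log2 values of the deposited FPKM entered limma 3.58.1 only as an alternative. Alternatives were DESeq2 1.42.0 (size factors; Wald and likelihood ratio tests), no filter on low counts, at least 50 counts in 3 libraries, a fit to the 6 libraries compared, a replicate block, leaving out each library, limma-trend on log2 FPKM after adding 0.1 or 1, a length trend removed (lowess, span 0.3) and mitochondrial genes left out. Added after seeing the data were leaving out the 3 libraries that stood apart and a block among the SSDS libraries alone. The fits were tested on simulated data drawn gene by gene, without shifts shared by genes within a library. That setting is simpler than these data, its outcome is not given here and no result rests on it.

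What libraries of the same number share is not stated in the labels. Deviations from the group means correlated between SSDS-shACOT12 and SSDS-GFP libraries of the same number at 0.196, 0.419 and 0.353, all over 0.1. No other 2 groups had all 3 over 0.1. On the data alone, the numbers were taken to pair these 2 groups in the counts over pairs and in the block alternatives. The main fit was not paired. Correlations between libraries of different numbers were not computed, so these values cannot show whether the numbers mark true pairs.

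The genes, lists and rules were chosen with earlier results of these data known. A gene of the interferon list is not reported here and was left out of its sums and counts. By the rule set, values by library were due for called genes and for the 5 with the smallest p in each of the 3 comparisons and in the F test. They were also due for Psmb5, Psmb6, Psmb7, Psmb10, Psme1, Psme2, Psma7, Psma8 and Psmb11, and among partners for Nfe2l1, Pomp, Usp14 and Adrm1. Some genes picked by smallest p are given in only part of the groups, such as Psmc2 and Psmd4 without CSDS. Others are named as the ends of a range, where few genes met a count, or by role; these were chosen after their values were seen.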

Additional observations from a re-analysis of the deposited data

How the results depend on the processing

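With 3 libraries per group, the number of libraries limits every gene. The SE did not follow depth alone. In SSDS-GFP against Control it was 0.12 for Psmd10 and 0.14 for Psmg1, against 0.16 for the more abundant Psmb5 and 0.18 for Psmb6. It was larger for the low genes Psme2 (0.20) and Psmg3 (0.23). The median log2 fold change of the 44 genes stayed within 0.06 to 0.13 in CSDS against Control and 0.20 to 0.30 in SSDS-GFP against Control as each library was left out. In SSDS-shACOT12 against SSDS-GFP it ran from -0.069 (without SSDS-shACOT12 3) to 0.096, and it was -0.13 with SSDS-GFP 3, SSDS-shACOT12 1 and SSDS-shACOT12 3 left out, where Psmd4 turned to -0.024; the cause was not tested.

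Proteasome genes called numbered 0 in each comparison with every library left out in turn. In SSDS-GFP against Control DESeq2 called 2 and the fit with no filter 1 (Psme2, adjusted p = 0.00418, edgeR). In the 4-group test DESeq2 called 3, no filter 1 and the 3 libraries left out 1, and leaving out single libraries gave 0 to 12.

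Genes called over all tested genes moved more. In CSDS against Control (0) they were 6 with DESeq2, 132 with no filter, 78 with the 6 libraries alone, 27 with the 3 libraries left out and 0 to 2 with single libraries left out. In SSDS-shACOT12 against SSDS-GFP (0) they were 108 with no filter, 17 with the 3 left out and 0 to 969 with single libraries left out (969 without SSDS-shACOT12 2). In SSDS-GFP against Control (16) they were 527 with DESeq2, 608 with no filter, 33 with the 6 libraries alone, 217 with the 3 left out and 4 to 110 with single libraries left out. In the 4-group test (15) they were 755 with DESeq2, 1457 with no filter, 468 with the 3 left out and 1 to 2286 with single libraries left out.

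The replicate block left the medians at 0.09, 0.06 and 0.25 (CSDS with Control, SSDS-shACOT12 with SSDS-GFP, SSDS-GFP with Control), with 0 proteasome genes called in each; over all genes it gave 9 calls in SSDS-GFP against Control and 8 in the 4-group test. Among the SSDS libraries alone the block gave a median of 0.06 and 0 proteasome genes called, and it changed no other call.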

Other observations

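Of the 32 partner genes, 5 had every CSDS library above every Control library (15.6%, against 10.2% of all tested genes) and 2 below (6.25%, against 10.1%). In SSDS-shACOT12 against SSDS-GFP 2 were above (6.25%, against 2.23%) and 1 below (3.12%, against 2.58%), and in SSDS-GFP against Control 6 were above (18.8%, against 12.5%) and 3 below (9.38%, against 11.4%). The partners separated in more than 1 comparison and not yet described are given by library, chosen after they were seen. Sem1, the smallest lid subunit, lay at 50.1, 57.0 and 49.4 CPM in CSDS, 52.0, 60.1 and 69.5 CPM in SSDS-shACOT12, 65.4, 57.8 and 55.2 CPM in SSDS-GFP and 39.3, 43.6 and 37.9 CPM in Control. All CSDS and all SSDS-GFP libraries were above the Control libraries, with log2 fold changes of 0.37 ± 0.13 (SE) (adjusted p = 0.849) and 0.56 ± 0.13 (SE) (adjusted p = 0.124, edgeR). Akirin2, which carries proteasomes into the nucleus, lay at 77.5, 89.8 and 75.8 CPM in CSDS, 63.0, 88.0 and 72.3 CPM in SSDS-shACOT12, 91.1, 90.3 and 75.5 CPM in SSDS-GFP and 64.9, 59.5 and 68.1 CPM in Control. It too lay above Control in every CSDS and SSDS-GFP library, with log2 fold changes of 0.34 ± 0.14 (SE) and 0.42 ± 0.14 (SE). Ube3c, a ubiquitin ligase bound to the proteasome, lay at 83.8, 80.1 and 78.7 CPM in CSDS, 78.4, 77.7 and 75.4 CPM in SSDS-shACOT12, 77.9, 86.4 and 65.3 CPM in SSDS-GFP and 91.1, 94.0 and 103 CPM in Control, below Control in every library of CSDS (-0.25 ± 0.12 (SE)) and of SSDS-GFP (-0.33 ± 0.12 (SE)). Uchl1, an abundant neuronal ubiquitin hydrolase, lay at 580.5, 600.5 and 490.1 CPM in CSDS, 678, 730.0 and 1258 CPM in SSDS-shACOT12, 675, 586 and 642 CPM in SSDS-GFP and 482, 500.2 and 453 CPM in Control. SSDS-shACOT12 3 had by far the highest value, and the log2 fold change of SSDS-shACOT12 against SSDS-GFP was 0.49 ± 0.20 (SE) (adjusted p = 0.802, edgeR). Those separated in 1 comparison were Ubqln2 (0.21), Uchl5 (0.25) and Ecpas (-0.18) in CSDS against Control, Nfe2l2 (-0.22) in SSDS-shACOT12 against SSDS-GFP, and Txnl1 (0.38), Nploc4 (-0.40) and Ubqln4 (-0.18) in SSDS-GFP against Control (log2 fold changes).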
